A study of Mus musculus with 12 samples.

Results

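The 2404 regions described here are stretches of mouse genome between genes that carried a peak of 5-hydroxymethylcytosine (5hmC) in 4 or 5 of 6 hippocampal libraries. Peaks of the 6 libraries on chromosomes 1 to 19 were pooled, and those sharing at least 1 bp were merged. A merged region was kept when 4 or 5 libraries had a peak in it, and when it overlapped no transcript body and no base within 1 kb of a transcript start. They make up 3.23% of all 74401 merged regions and 8.09% of the 29724 that lie between genes. Of the 6955 regions found in 4 or 5 libraries anywhere on these chromosomes, 34.6% were between genes. The regions were chosen by the number of libraries with a peak and by their position, so both are given as a description, with no test. Comparisons of the stress and control groups below use peaks on regions chosen in this way. The rule took no account of group.

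The study asked how a single episode of restraint changes 5hmC in the hippocampus of male C57BL/6 mice. The stress group (6 mice) was restrained for 30 min, beginning 2 h after lights-on, and then housed singly for 1 h before tissue was taken under brief isoflurane. The control group (5 mice) was naive, and its tissue was taken when the restraint of the other mice began, also under isoflurane. Restraint, single housing and the later collection time therefore cannot be told apart. Each of the 3 stress and 3 control libraries was made from DNA of 1 or 2 pooled mice, so p-values measure the spread between pools. RNA from the same pools was summarised by the authors in 1 table per group. For age, the tags of the samples say postnatal day 28, while the protocol says 7 weeks. Markers of dentate granule cells (Prox1), CA1 (Wfs1), CA3 (Bok) and excitatory neurons (Camk2a) were all present in both RNA tables.

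5hmC is made from methylated cytosine by the TET enzymes, which use oxygen and alpha-ketoglutarate, and is abundant in neurons. In brain it is best known from the bodies of transcribed genes and from enhancers, the distal elements that bind transcription factors and act on promoters from a distance. Peaks that lie outside genes and recur across pools are therefore of interest as possible distal elements, although a peak list alone does not say which gene a region acts on. Here each region was assigned to the gene whose transcript edge lay nearest, which is a statement about position.

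Stress replicates 1, 2 and 3 came with lists of 15197, 27800 and 31656 peaks, and control replicates 1, 2 and 3 with lists of 17189, 27920 and 16328. Per the labels, libraries had about 25000000 to 35000000 uniquely mapped reads, with no value for any one of them. A library without a listed peak may still hold 5hmC in the region, since the lowest deposited score was 50 in every list.

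Most of the regions were short. The median length was 1331 bp (interquartile range 1109 to 1692), the shortest was 720 bp and the longest 5225 bp. The 1580 regions of 4 libraries had a median length of 1292 bp and the 824 regions of 5 libraries one of 1425 bp. Just outside the rule, the 3070 regions between genes found in 3 libraries had a median of 1175 bp, and the 397 found in all 6 had one of 1465 bp. Peaks of different libraries lay largely on the same bases. The stretch covered by at least 4 libraries had a median of 826 bp, and it took a median of 65.2% of the region. Only 43 of the 2404 regions had no base shared by at least 4 libraries, because their peaks overlapped in a chain. Together the regions covered 3.50 Mb.

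Libraries differed widely in how many of the regions they held, and they differed as much within a group as between the groups. Stress replicates 1, 2 and 3 had a peak in 61.3%, 85.3% and 87.0% of the regions. Control replicates 1, 2 and 3 had one in 55.5%, 83.9% and 61.3%. The groups overlapped: control replicate 2 stood beside stress replicates 2 and 3, and stress replicate 1 stood beside control replicate 3. The mean was 77.9% ± 14.4 in stress and 66.9% ± 15.0 in control libraries (SD, n = 3 each). That difference of 11.0 percentage points was within the spread between libraries (exact two-sided permutation p = 0.2, adjusted p = 0.3 over 3 tests). These shares are made of the same peaks that the rule counted to choose the regions. Their p-values therefore describe the chosen regions and are no independent check. With 3 libraries against 3, the smallest p that this exact test can give is 0.1, so none of the tests between the groups could pass 0.05. The 3 libraries with the longest lists were also the 3 with the most regions, but within the longer and the shorter lists the order differed: control replicate 1 had the most peaks of the shorter lists and the lowest share. With every list shortened to the same covered length, the difference between the groups was 2.40 percentage points (exact permutation p = 0.6).

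In every library, peaks on the regions had a greater median length than its peaks between genes as a whole. The rule chose regions by the number of libraries, and region length rose with that number. Its median between genes was 857 bp for regions of 1 library and 1465 bp for those of 6. The median length of a peak on the regions was 990, 1100 and 1087 bp in stress replicates 1, 2 and 3. It was 940, 1029 and 965 bp in control replicates 1, 2 and 3. Control replicate 2 lay above stress replicate 1, so the groups overlapped. The mean of the stress libraries was 1059 ± 60.1 bp and that of the control libraries 978 ± 45.9 bp (SD, n = 3 each; exact two-sided permutation p = 0.2, adjusted p = 0.3). Over all peaks between genes the means were 964 ± 40.2 and 884 ± 33.7 bp, without overlap of the groups (exact permutation p = 0.1). Peaks of stress libraries were thus longer by a similar number of bases on these regions (81 bp) and on all peaks between genes (79.7 bp). The ratio of the 2 lengths was 1.10 ± 0.0193 in stress and 1.11 ± 0.0228 in control libraries.

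Within each list, peaks on the regions ranked above the middle. Rank, too, rose with the number of libraries that the rule used. Between genes, the median of the mean score percentile was 34.7 for regions of 1 library and 75.6 for those of 6. By library, the median score percentile of peaks on the regions was 64.0, 70.4 and 71.8 in stress replicates 1, 2 and 3. It was 64.4, 71.6 and 65.9 in control replicates 1, 2 and 3. The group means of 68.7 ± 4.14 and 67.3 ± 3.82 (SD, n = 3 each) did not differ beyond the spread between libraries (exact two-sided permutation p = 0.9, adjusted p = 0.9). The sign of this small difference changed when single libraries were left out.

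**Figure D1:**
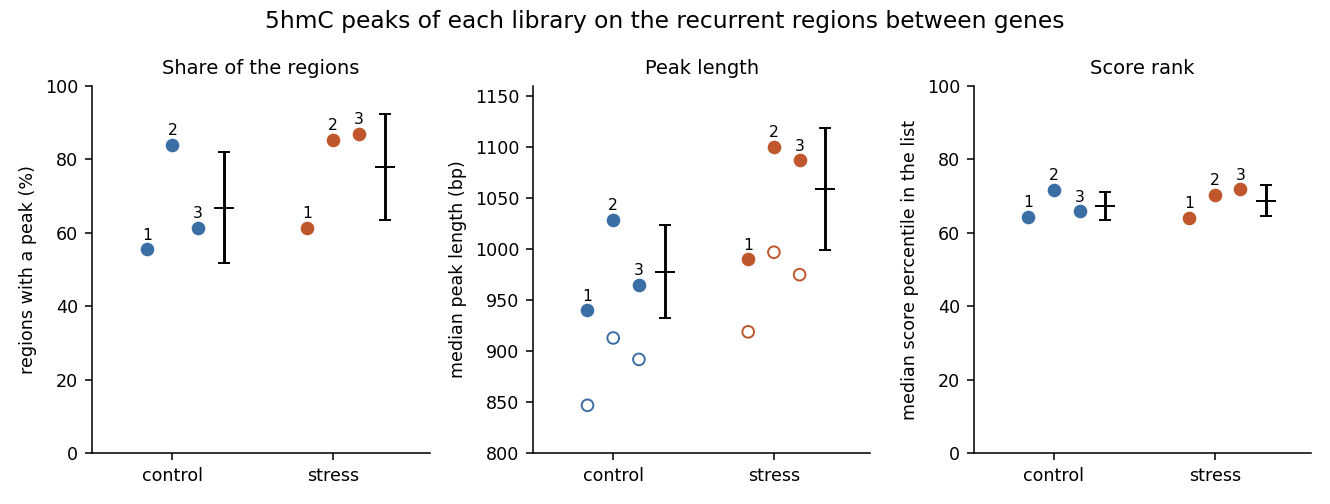
Each point is 1 library, numbered by replicate, with the group mean and SD (n = 3) beside it, for the percentage of the 2404 regions with a peak, the median length of peaks on them in bp (open circles: all peaks between genes of that library; this axis does not start at 0) and their median score percentile within the list. The groups overlap in all 3 panels for the peaks on the regions, and only the open circles of peak length separate stress from control.

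The regions missed 1 or 2 libraries each, and which libraries they missed was uneven. All 15 possible sets of 4 libraries and all 6 sets of 5 occurred. The most frequent set was the 3 stress libraries with control replicate 2, at 314 regions. The next were stress replicates 2 and 3 with control replicates 2 and 3, at 272, and stress replicates 2 and 3 with control replicates 1 and 2, at 212. All of these sets hold the 3 longest lists. Among the 824 regions of 5 libraries, control replicate 1 was the missing library in 248, stress replicate 1 in 199 and control replicate 3 in 198. Control replicate 2 was missing in 70, stress replicate 3 in 59 and stress replicate 2 in 50.

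Seen by group, 483 regions had a peak in all 3 stress libraries and 1 control library. The reverse, with 1 stress and 3 control libraries, held for 190, a ratio of 2.54. Regions of 4 libraries at genes had a ratio of 2.77, which was 2.63 in transcript bodies (898 and 342 regions) and 4.47 at promoters (134 and 30). Another 907 regions had 2 libraries of each group, 516 had 3 stress and 2 control libraries, and 308 had 2 stress and 3 control libraries. The ratio for 5 libraries was 1.68 between genes and 1.59 at genes. The ratio between genes was thus close to that in transcript bodies and below that at promoters, and these differences were not tested. It depended on how the lists were made comparable. When every list was shortened to the same covered length, the counts were 218 and 184 and the ratio 1.18. When each list was instead limited to an equal number of its highest peaks by score, they were 283 and 164, a ratio of 1.73. With the higher-scoring 50% of each list, which keeps the lists unequal, they were 235 and 93 and the ratio stayed at 2.53.

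**Figure D2:**
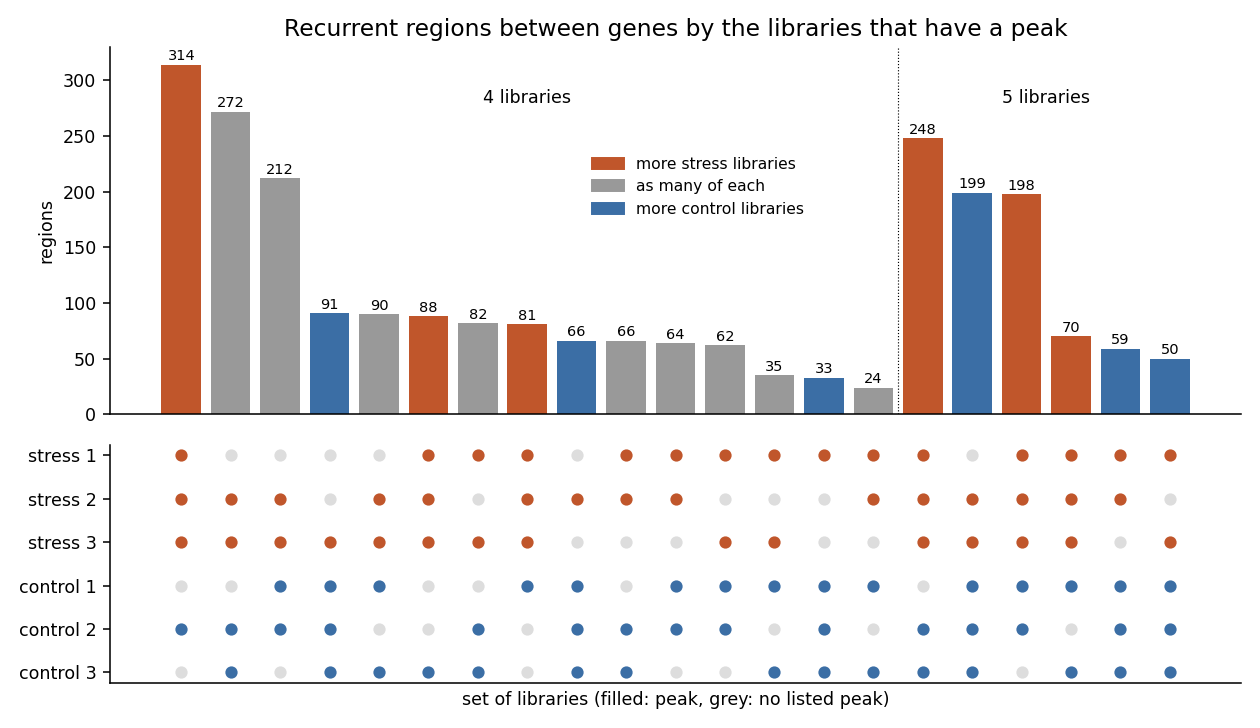
Bars give the number of regions for each set of libraries with a peak (filled dots under the bar; grey dots: no listed peak), ordered within 4 and 5 libraries by size and coloured by which group has more libraries. The tallest bar is the 3 stress libraries with control replicate 2 (314 regions), and among regions of 5 libraries the tallest lacks control replicate 1 (248).

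Covered length was set side by side in the same way. In 310 regions (12.9%) every stress library covered more bases than every control library, against 13.6% of all 6955 regions of 4 or 5 libraries. In 52 regions (2.16%) every control library covered more, against 1.97% of all. Both shares were close to those over all regions, so nothing in them was particular to the sequence between genes. With every list shortened to the same covered length, the 2 counts were 172 and 36 of 1350 regions. With an equal number of peaks per list they were 200 and 38 of 1503. Unlike the ratio by libraries, these counts thus stayed far apart. The shares over all regions were not computed at these settings.

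The regions lay on both sides of genes and at all distances. The distance to the nearest transcript ranged from 32 bp to 1204 kb, with a median of 29.8 kb (interquartile range 9.96 to 77.6 kb). The median distance to the nearest transcript start was 44.4 kb. At the edge of the rule, 35 regions had their nearest start at over 1 and under 1.5 kb, and 68 regions of 4 or 5 libraries outside transcripts were left out with a start at over 0.5 and up to 1 kb. Of the 2404 regions, 50.1% lay upstream of their nearest gene, where 50.6% of the sequence between genes lies. They were spread over 1448.5 Mb of such sequence, at 1.66 regions per Mb. By chromosome the density ran from 1.18 per Mb on chromosome 7 to 2.26 per Mb on chromosome 19. The median distance from a region to the next one was 148 kb, and 198 (8.24%) had another within 10 kb. Whether they lay closer together than randomly placed regions would was not tested.

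Density was lower farther from genes. It was 2.55 regions per Mb of sequence under 10 kb from the nearest transcript, 2.46 at 10 to under 50 kb, 1.97 at 50 to under 100 kb and 0.749 at 100 kb or more. The nearest class was thus 3.40 times as dense as the farthest. Computed for the regions held by each library, this ratio was 3.48 ± 0.191 (SD over 6 libraries), with a range of 3.20 to 3.69. For regions between genes found in 1 library only it was 2.54 ± 0.444, with a range of 2.01 to 3.18. Over all libraries together the ratio was 3.01 for regions of 4 libraries and 4.32 for those of 5, against 3.11 for regions of 3 and 3.14 for regions of all 6. A ratio near 3 was thus not particular to regions of 4 or 5 libraries, and that of regions of 5 stood above the others. The libraries share most of the recurrent regions, so their values are not independent and no test was made of these differences. At each side of the gene the pattern was alike, with 2.51 regions per Mb under 5 kb upstream and 2.84 under 5 kb downstream.

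Density was also higher beside expressed genes. Levels of RNA are in FPKM (fragments scaled to transcript length and to the total of the table), summed over the isoforms of a gene in the control table. Sequence nearest to genes under 0.1 FPKM held 1.20 regions per Mb. Sequence nearest to genes of 0.1 to under 1, 1 to under 10, and 10 FPKM or more held 1.87, 1.96 and 1.88 per Mb. The step was between the class under 0.1 FPKM and all others, with little difference among the 3 upper classes. An exact 0 in these tables is no proof of silence, and genes listed at 0 fall into the lowest class. The ratio of the highest to the lowest class was 1.58 ± 0.0682 over the 6 libraries, and 1.51 ± 0.0656 for regions of 1 library, with overlapping ranges.

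The contrast by expression was concentrated near genes. Under 10 kb, sequence beside genes of 10 FPKM or more held 3.56 regions per Mb and sequence beside genes under 0.1 FPKM held 1.44, a ratio of 2.47. This ratio was 1.96 at 10 to under 50 kb, 1.37 at 50 to under 100 kb and 1.11 at 100 kb or more. Its range over libraries was 2.27 to 2.70 in the nearest class and 1.03 to 1.25 in the farthest, without overlap. Regions of 1 library showed the same order from the nearest class (2.21) to the farthest (1.20), so the order was not limited to recurrent regions.

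**Figure D3:**
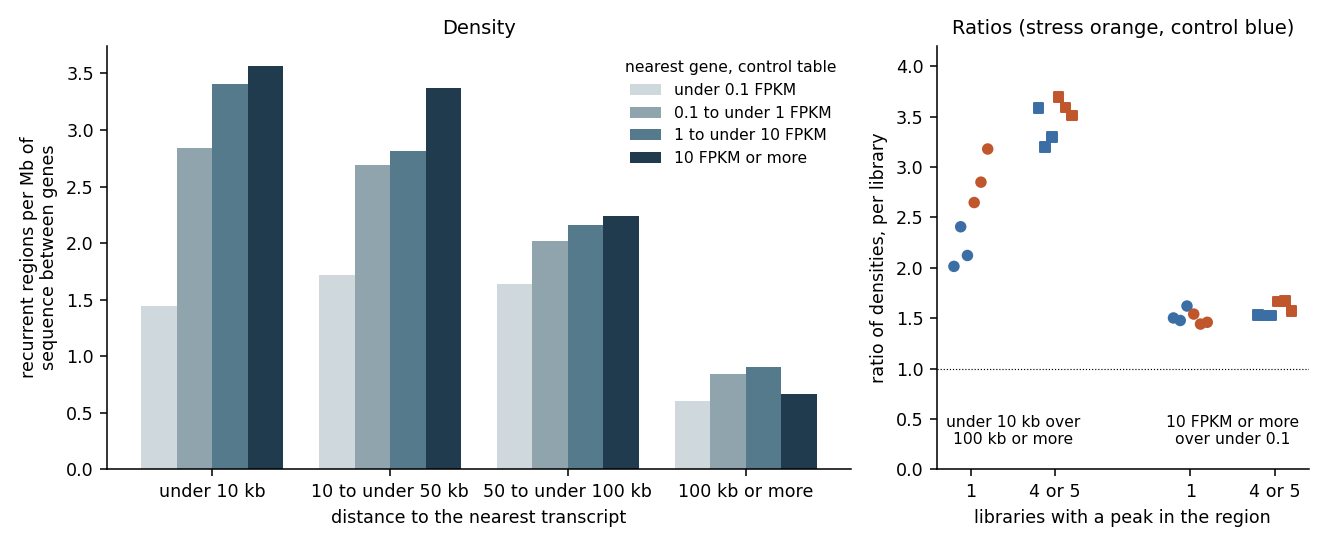
Left, recurrent regions per Mb of sequence between genes by distance to the nearest transcript and by FPKM of that gene in the control table. Right, the ratio of the under 10 kb class to the 100 kb or more class and of the 10 FPKM or more class to the under 0.1 FPKM class, 1 point per library (circles: regions of 1 library, squares: regions of 4 or 5), where 1 would mean equal density; near expressed genes the density reaches 3.56 per Mb and far from genes it stays under 1.

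The 2404 regions had 1847 nearest genes. Of these, 1443 were nearest to 1 region, 404 to at least 2 and 35 to at least 4, and no gene was nearest to more than 6. For 1955 regions (81.3%) the nearest gene had a protein-coding transcript in RefSeq, and so had that of 80.1% of the sequence between genes. The gene lists used next were chosen with results of these data known, and a list's density is given with an exact Poisson 95% interval that covers counting error only. It is set beside 1.66 per Mb over all genes and 1.96 per Mb beside genes of 1 to under 10 FPKM, as a description and not as a test of the list.

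Genes induced by glucocorticoids, the hormones released in stress, were nearest to 5 regions in 1.27 Mb, or 3.95 per Mb (interval 1.28 to 9.21). That interval includes both the 1.66 per Mb over all genes and the 1.96 per Mb beside genes of 1 to under 10 FPKM. The 5 regions belonged to 4 of the 29 genes of the list on chromosomes 1 to 19. Sgk1, a kinase that regulates ion channels and transporters and is a classic glucocorticoid target, had 1 region 16.9 kb downstream of its transcript (mm9 chromosome 10, 21736579 to 21737683). Peaks covered 726, 971 and 989 bp of it in stress replicates 1, 2 and 3, and 0, 867 and 1039 bp in control replicates 1, 2 and 3. The groups overlapped there, and the library that lacked a peak was control replicate 1, which lacked one in the largest number of regions.

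Ddit4, an inhibitor of mTORC1 signalling, had 1 region 15.2 kb upstream (chromosome 10, 59429764 to 59431291). Stress libraries covered 1034, 1416 and 1102 bp of it, and control libraries 0, 990 and 1012 bp. Here every stress value was above every control value, as in 12.9% of the regions. Bcl6, a transcriptional repressor, had a region 2.87 kb upstream with a peak in 2 stress and 3 control libraries and another 26.9 kb upstream with a peak in 3 stress libraries and control replicate 2. In the second of these, peaks covered 1336, 1248 and 1029 bp in the stress libraries and 0, 1050 and 0 bp in the control libraries. Tsc22d1, a leucine zipper protein related to the glucocorticoid-induced Tsc22d3, had 1 region 49.8 kb upstream with 2 stress and 3 control libraries.

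Genes that carry the corticosteroid signal were nearest to 4 regions in 0.964 Mb, or 4.15 per Mb (interval 1.13 to 10.6). Nr3c1, which encodes the glucocorticoid receptor, had 1 region 106 kb upstream, on chromosome 18. Peaks covered 0, 1727 and 1056 bp in stress replicates 1, 2 and 3 and 0, 942 and 1000 bp in control replicates 1, 2 and 3, so both first replicates lacked it. Ncoa1, which encodes a coactivator of nuclear receptors, had a region 47.5 kb upstream (3 stress and 2 control libraries), and the related coactivator gene Ncoa2 had one 1501 bp upstream (3 stress and 1 control library).

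Immediate early and other activity-induced genes, which neurons switch on within minutes of firing, were nearest to 16 regions in 4.98 Mb. Their density was 3.21 per Mb, with an interval of 1.84 to 5.22. It lies above the 1.66 per Mb over all genes and includes the 1.96 per Mb beside genes of 1 to under 10 FPKM. Of their sequence, 36.0% lay at 100 kb or more from the gene, against 43.7% over all genes. The 16 regions belonged to 9 of 42 genes. Dusp6, a phosphatase that switches off ERK, had 4 regions, of which 1 lay upstream and 3 downstream between 29.2 and 93.5 kb. The upstream one was covered over 1277, 1943 and 2184 bp in stress libraries and over 0, 2201 and 1211 bp in control libraries. The farthest downstream had the opposite make-up, with 0, 846 and 0 bp in stress libraries and 836, 985 and 890 bp in control libraries. Regions beside the same gene therefore did not share a pattern of libraries.

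Nr4a3, an orphan nuclear receptor induced by activity, had 3 regions upstream at 28.6, 214 and 247 kb. Dusp4, a phosphatase of the same family as Dusp6, had 2 regions 12.4 and 14.6 kb upstream, and Jun, a subunit of the AP-1 transcription factor, had 2 at 53.8 and 156 kb upstream. Gadd45b, which takes part in activity-induced DNA demethylation, had 1 region 4.51 kb downstream (chromosome 10, 80399463 to 80400612). Stress libraries covered 825, 914 and 1150 bp of it, and control libraries 0, 731 and 0 bp, so the groups did not overlap. Trib1, Sik1, Ier5 and Plk2 had 1 region each, and that of Sik1, a salt-inducible kinase, was among the 10 longest at 3420 bp. Fos, Arc and Bdnf were not the nearest gene of any region.

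Genes of DNA methylation and 5hmC turnover were nearest to 4 regions in 1.38 Mb, or 2.90 per Mb (interval 0.791 to 7.43). Tet2, one of the enzymes that make 5hmC, had 1 region 211 kb upstream (chromosome 3, 133418552 to 133419797), covered over 0, 1224 and 1065 bp in stress libraries and 967, 801 and 0 bp in control libraries. The groups overlapped. Idh1 and Idh2, which make the alpha-ketoglutarate that TET enzymes use, had 1 region each, and Gadd45b, described above, is also on this list. Tet1, Tet3, Dnmt1 and Dnmt3a were not the nearest gene of any region.

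**Figure D4:**
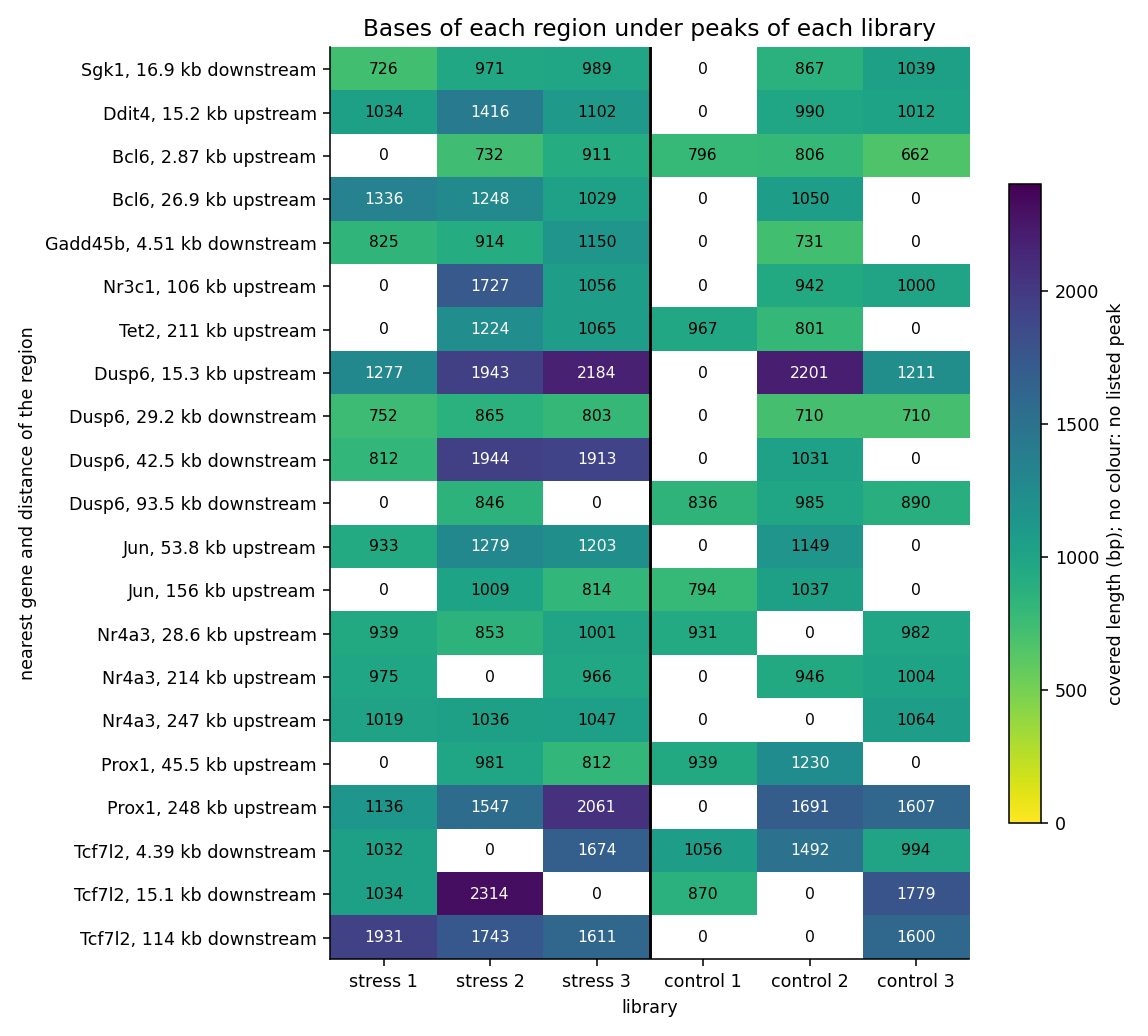
Each cell gives the bases of 1 region under peaks of 1 library, for 21 regions beside genes named in the text, ordered by gene and distance. Most rows have an empty cell in control replicate 1 or stress replicate 1, which with control replicate 3 lacked a peak in the most regions. Only a few, such as the region beside Gadd45b, have higher values in all 3 stress libraries.

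Transcription factors of neurons were nearest to 38 regions in 14.2 Mb, or 2.68 per Mb, with an interval of 1.90 to 3.68. It lies above the 1.66 per Mb over all genes and includes the 1.96 per Mb beside genes of 1 to under 10 FPKM. Of their sequence, 53.9% lay at 100 kb or more from the gene. The 38 regions belonged to 20 of 74 genes. Sox5, which guides neuronal differentiation, had 6 regions, a number that no gene exceeded. One lay 55.2 kb downstream and 5 lay 46.3 to 130 kb upstream, with lengths of 1610 to 2584 bp upstream. Tcf7l2, a nuclear effector of Wnt signalling that is also a marker of thalamus, had 3 regions downstream at 4.39, 15.1 and 114 kb. The last was covered over 1931, 1743 and 1611 bp in stress libraries and 0, 0 and 1600 bp in control libraries.

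Dlx2, a factor of inhibitory interneurons, had 3 regions between 60.9 and 79.1 kb upstream although its RNA stood at 0.592 FPKM in the control table. Prox1, the factor that defines dentate granule cells, had 2 regions at 45.5 and 248 kb upstream, and Neurod1, another factor of granule cell development, had 2 at 53.3 and 81.0 kb upstream. The longer Prox1 region (2299 bp) was covered over 1136, 1547 and 2061 bp in stress libraries and 0, 1691 and 1607 bp in control libraries.

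Genes of synapses and excitability are given by list. The intervals of the scaffold, channel and receptor lists overlap, and differences between them were not tested. Scaffold and release genes were nearest to 10 regions in 4.14 Mb, or 2.42 per Mb (interval 1.16 to 4.44). Dlgap1, a scaffold of the postsynaptic density, had 4 of them between 14.2 and 116 kb upstream. Cplx2, which clamps vesicle fusion at the synapse, had 3, at 11.8 and 27.6 kb upstream and 35.8 kb downstream. Genes of the channel list were nearest to 10 regions in 8.90 Mb, or 1.12 per Mb (interval 0.539 to 2.07). That list is not of voltage-gated channels alone: 2 of its regions lay beside Kcnj6 and 1 beside Kcnk2, potassium channels of other classes. Scn8a, the sodium channel of the axon initial segment, had a region 1.61 kb upstream and another 1.54 kb downstream. Both regions upstream of Cacna1a, the pore subunit of P/Q-type calcium channels, had peaks in all 3 stress libraries and in control replicate 2.

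Glutamate receptor genes were nearest to 3 regions in 6.86 Mb, or 0.437 per Mb (interval 0.0902 to 1.28). These were 2 regions beside Grm4, a metabotropic receptor, and 1 beside Grik3, a kainate receptor. GABA receptor genes had no region in 2.81 Mb, where the interval allows up to 1.31 per Mb and the limit of 3 counts 1.07 per Mb. Axon guidance and adhesion genes were nearest to 29 regions in 57.4 Mb, or 0.505 per Mb (interval 0.338 to 0.725). Of their sequence, 82.5% lay at 100 kb or more from the gene, against 43.7% over all genes, and 65.6% did for glutamate receptor genes. The share was 53.4% for GABA receptor genes, 52.2% for genes of the channel list and 35.0% for scaffold and release genes. The part of distance in the densities of these lists was not tested. Sema6d, a guidance cue, had 4 regions, of which 1 lay 424 kb upstream.

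Olfactory and vomeronasal receptor genes, known for their role in sensory epithelia, had a median of 0 FPKM here, although 4 of 1442 averaged 1 FPKM or more. They were nearest to 4 regions in 44.5 Mb. This gave 0.0899 per Mb (interval 0.0245 to 0.230), the lowest density of the lists with any region, although only 3.30% of their sequence lay at 100 kb or more from a gene. Sequence beside these genes thus held few recurrent regions per Mb, although most of it lay under 100 kb from a gene. All sequence between genes was counted, and how much of it uniquely mapped reads can cover was not tested. The part of such coverage and of low RNA in this density was therefore not tested either.

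Genes of microRNAs or their host transcripts were nearest to 46 regions in 31.7 Mb, or 1.45 per Mb (interval 1.06 to 1.93). They came to 37 genes, of which 35 were listed at 0 in both RNA tables. Among them, and chosen after their values were seen, are members of the miR-99/100 and let-7 families. Mir100 and Mirlet7a-2 lie in 1 cluster on chromosome 9, Mir99a and Mirlet7c-1 in another on chromosome 16, and Mirlet7i lies apart on chromosome 10. Both families repress targets through the seed at the 5′ end, and let-7 is known for promoting differentiation. The mature sequences are shown because the regions lie beside genes whose products share a seed. They are from the RefSeq table of GRCm38.p6, with bases 2 to 8 in capitals, and mature sequences were found for 30 of the 37 genes.
mmu-miR-100-5p: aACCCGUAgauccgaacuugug
mmu-miR-99a-5p: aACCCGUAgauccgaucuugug
mmu-let-7c-5p: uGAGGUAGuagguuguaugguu
mmu-let-7i-5p: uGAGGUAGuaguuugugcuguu

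On chromosome 9, a region 27.2 kb upstream of Mir100 (mm9 41310135 to 41312352) was covered over 2155, 2218 and 2135 bp in stress libraries and 0, 0 and 1328 bp in control libraries. A region 15.8 kb downstream of Mirlet7a-2 (41360680 to 41362014), in the same cluster, had 2 libraries of each group. On chromosome 16, the paralogous cluster had a region 7.78 kb upstream of Mir99a (77589751 to 77591398) and another 5.72 kb downstream of Mirlet7c-1 (77605714 to 77607574). The first was covered over 1510, 0 and 1078 bp in stress libraries and 1628, 1177 and 0 bp in control libraries. The second was covered over 1031, 1397 and 1152 bp in stress libraries and 0, 879 and 0 bp in control libraries. Both clusters therefore had 1 region with 3 stress libraries and 1 control library and 1 with 2 of each. A region 1.12 kb upstream of Mirlet7i on chromosome 10 (122423897 to 122426118) also had 2 of each. These 5 genes were among those listed at 0.

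Some gaps between genes held several regions. Of 1704 gaps with at least 1, 435 had 2 or more. The 8 regions between Ppap2b and Usp24 lay in a gap of 1083 kb on chromosome 4, and 6 of them were nearest to Usp24, a deubiquitinase, at 54.5 to 456 kb upstream. One of these ranked high in all its lists, with a mean score percentile of 95.7. Another 8 lay in the 1238 kb between Tmem132b and 4933438B17Rik on chromosome 5. Shorter gaps with many regions were the 354 kb between Tcf7l2 and Habp2 with 6 regions and the 401 kb between Chd7, a chromatin remodeller, and Clvs1, also with 6. The densest of the gaps with 5 or more was that of 127 kb between Med13, a Mediator subunit, and Rnft1. Regions in 1 gap differed in their libraries: of the 4 downstream of Chd7, 1 had 3 stress and 1 control library, 1 had 1 stress and 3 control libraries, and 2 had 2 stress and 3 control libraries.

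The longest region, of 5225 bp, lay 10.5 kb upstream of Reep3, which shapes the endoplasmic reticulum. It was covered over 3776, 4154 and 5213 bp in stress libraries and 0, 3036 and 3272 bp in control libraries, so every stress value was above every control value. The next, of 4439 bp, lay 8.24 kb upstream of Cic, a repressor of growth factor target genes, with 2770, 4439 and 3571 bp in stress libraries and 0, 2053 and 0 bp in control libraries. Of the 10 longest, 4 had 3 stress and 1 control library, 3 had 2 stress and 3 control libraries and none had 1 stress and 3 control libraries. Over all regions, 20.1% had the first, 12.8% the second and 7.90% the last pattern. The greater length of stress peaks between genes, given above, moves with this count, and its part was not tested. The region with the highest mean score percentile among those of 5 libraries (99.1) lay 2.57 kb upstream of Skil, an inhibitor of SMAD signalling, and lacked control replicate 1. Of the 5 regions farthest from any transcript, 3 lay between Igsf11 and Lsamp, 2 adhesion molecules on chromosome 16, at 944 to 1204 kb.

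RNA beside the regions was much like RNA elsewhere. There is 1 table per group, so these differences have no replicate check and no test was made. Differences are log2((stress + 1)/(control + 1)) of FPKM, a scale that understates the change of low genes. Of the 1847 nearest genes, 1062 passed the filter of a mean of at least 1 FPKM. Their median difference was 0.09, against 0.08 over all 11071 genes that passed. At least 2-fold higher in the stress table were 3 of them (0.282%), where 0.307% of all genes were. At least 2-fold lower were 2 (0.188%), where 0.289% of all were. Over all genes, microRNA genes made up 8 of the 34 that were higher and 1 of the 32 that were lower, although only 15 passed the filter. The medians by library pattern ran from 0.08 for 2 stress and 2 control libraries to 0.11 for 2 stress and 3 control libraries, and were 0.09 for 3 stress and 1 control library and 0.10 for the reverse. The few genes named next thus stand for themselves and not for the regions as a group.

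Sgk1 stood at 7.34 FPKM in the control and 21.9 FPKM in the stress table, a difference of 1.46. It became 2.45 when only the most abundant isoform of each table was counted, which need not be the same isoform in both. Gadd45b stood at 0.978 and 3.36 FPKM, a difference of 1.14, and Akr1b3, an aldose reductase listed at nearly 0 in the control table, at 2.43 FPKM in the stress table. The control value of Akr1b3 can be a failed estimate. Below the 2-fold mark, Ddit4 stood at 17.4 and 34.2 FPKM (0.94), Mgp at 2.87 and 5.86 FPKM (0.83), Lrrc8c at 2.38 and 4.39 FPKM (0.67) and Bcl6 at 8.63 and 14.3 FPKM (0.67). Of the 25 genes of the glucocorticoid-induced list that passed the filter, 4 were at least 2-fold higher and none lower, and the median was 0.63. Of that list, the 4 genes beside recurrent regions are Sgk1, Ddit4, Bcl6 and Tsc22d1, and the last stood at 72.6 and 86.2 FPKM. Nr3c1 stood at 8.58 and 7.17 FPKM, and Tet2 at 3.26 and 3.37 FPKM.

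On the lower side, Kcne2, a potassium channel subunit of choroid plexus, stood at 2.28 FPKM in the control and 0.525 FPKM in the stress table (-1.10). Tiam1, an activator of the GTPase Rac, was listed at 14.2 FPKM in the control table and at 0 in the stress table, which can be a failed estimate. Tmem125 (-0.99), Kl (-0.92), Klf7 (-0.65) and Sostdc1 (-0.59) followed. All 5 markers of choroid plexus, the tissue that makes cerebrospinal fluid, were lower in the stress table, with Ttr at 217 and 59.5 FPKM. All 3 markers of ependyma (Ccdc153 at 2.13 and 0.665 FPKM) and all 5 of oligodendrocytes (Mag at 20.9 and 14.4 FPKM, Opalin at 13.9 and 9.46 FPKM) were lower as well. Kl, the klotho gene, is one of the choroid plexus markers. The part of these cell types in the lower values, those of Kcne2, Kl, Sostdc1 and Tmem125 included, was not tested, and in whole tissue fewer cells of a type and less RNA per cell cannot be told apart. Sostdc1, a secreted antagonist of BMP and Wnt signals, had 3 regions, of which 2 had 1 stress and 3 control libraries. That pattern held for 7.90% of all regions. The region of Kcne2 had the opposite pattern, with 3 stress and 1 control library, and that of Tmem125 had 2 of each. Kl had regions 7.96 kb (3 stress and 2 control libraries) and 46.6 kb upstream (2 of each). Klf7 had 1 region, with 2 stress and 3 control libraries. Lower RNA thus went with different patterns of libraries.

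**Figure D5:**
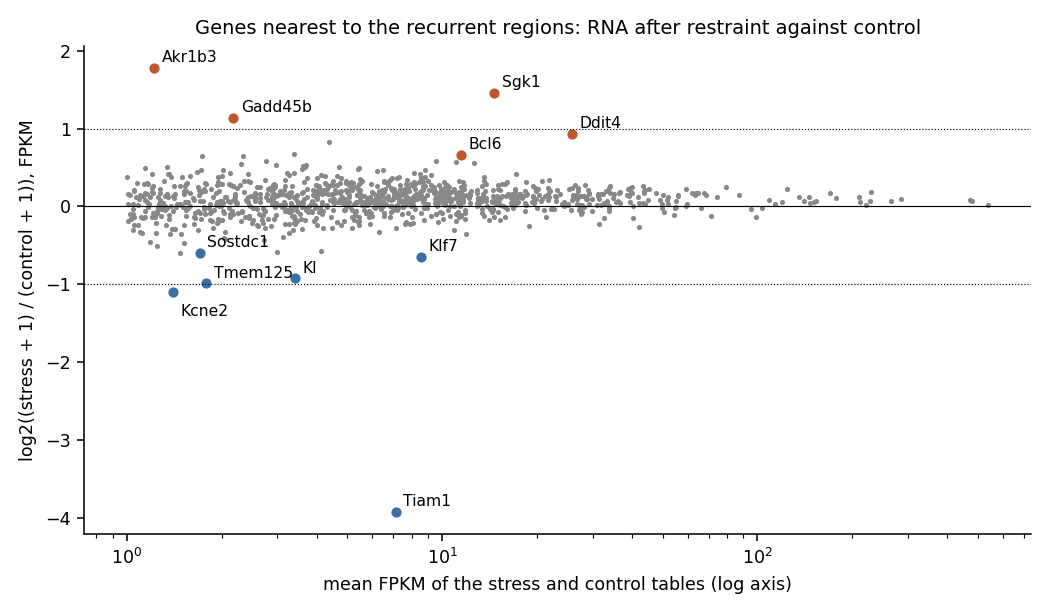
Each point is 1 of the 1062 genes nearest to a recurrent region that passed the filter, by its mean FPKM (log axis) and its difference between the stress and the control table on the log2(FPKM + 1) scale; dotted lines mark 2-fold. Almost all points lie within the lines, Sgk1, Gadd45b and Akr1b3 lie above, Kcne2 lies below, and Tiam1, listed at 0 in the stress table, lies far below.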

How the data were processed

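Hippocampal 5hmC was measured by chemical tagging and capture of 10 ug of DNA sonicated to 300 bp, sequenced as 50 nt single reads, and RNA from 100 ng as 100 nt paired reads, per the labels' protocols. The authors deposited 1 peak list per 5hmC library, with a score per peak. Peak names are those MACS gives, and its version and any input library are not given in the sources used here. Bowtie 0.12.9, TopHat 1.0.12, Cufflinks 2.1.1, Cuffdiff 2.1.1 and edgeR are named in the submitters' processing notes, with build mm9. Scores were used only as ranks within a list. The authors deposited 1 Cufflinks table per group, with FPKM of 33262 transcripts as another field of text per row, and no counts.

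Transcripts came from the control table. Sequence between genes was sampled every 500 bp for densities. Isoforms were summed, genes whose 2 tables averaged 1 FPKM or more were kept, and 1 was added before log2. Groups of 3 libraries were compared by exact two-sided permutation over 20 assignments, with Benjamini-Hochberg adjustment over 3 tests, in Python 3.11.15 (numpy 2.4.6, pandas 2.3.3, scipy 1.17.1). Peak merging, densities and folds were tested on simulated data. Genes were named by rank (most, longest, farthest or highest-ranked regions, extreme RNA differences), by list or from 11 fixed genes; Trib1, Ier5 and Plk2, the microRNA genes and Tiam1 were named after their values were seen. The regions, lists and naming rule were chosen with earlier results of these data known. The alternatives tried were shorter or equal lists, other overlap, gap and promoter settings, leaving out each library, a replicate block, and other RNA settings. Sequences of the regions are not reported, since no mm9 genome was used here.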

Additional observations from a re-analysis of the deposited data

Results flagged for a closer look

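The rule leaves out the sex chromosomes. Chromosome X has 118.7 Mb of sequence between genes, and 15 regions with a peak in at least 1 library lay there. None of these was found in 4 or 5 libraries. Chromosomes 1 to 19 had 29724 regions between genes with a peak in at least 1 library. The lists thus held few peaks between genes on chromosome X, too few to say how often regions recur there. The value is given because it lies outside the comparisons above.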

How the results depend on the processing

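The number of regions was 1029 for the higher-scoring 50% of each list, 1503 for the same number of peaks per list, 1350 for the same covered length, and 3303 to 4212 with 1 library left out and regions kept in 3 or 4 of the other 5. With these 3 list settings, regions covered more in every stress library came to 143 of 1029, 200 of 1503 and 172 of 1350. Together with the reverse they came to 160, 238 and 208, with the reverse alone at 17, 38 and 36. The share over all regions of 4 or 5 libraries, at genes included, is given above for the full lists only. The ratio of regions with 3 stress and 1 control library to the opposite was 1.73 and 1.18 with equal numbers and equal covered lengths and 2.53 for the higher-scoring 50%. The difference in score percentile turned to -0.217 for the higher-scoring 50%, and ranged from -1.65 to 3.11 with 1 library left out. The share with a peak differed by 2.40 points with the same covered length (exact permutation p = 0.6). It differed by 4.47 to 20.1 points and the length by 56.8 to 112.5 bp with 1 library left out, with stress higher each time. The ratio of densities by distance was 3.71 and 3.65 for the higher-scoring 50% and equal numbers, 2.83 with protein-coding transcripts only, and 3.11 to 3.37 with 1 library left out. The ratio by expression was 1.91, 1.72, 1.63 and 1.83 for the higher-scoring 50%, equal numbers, libraries covering at least 50% of the region and protein-coding transcripts only. It was 1.66 with FPKM of the stress table and 1.41 to 1.49 with 1 library left out. Genes at least 2-fold lower came to 4 with a pseudocount of 0.1 and with centring, where 0.569% and 0.352% of all genes did, and to 5 with the nearest transcript start. The median RNA difference was 0.11 with a pseudocount of 0.1, 0.020 with no filter and 0.0092 after centring.

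Same-numbered stress and control libraries did not deviate together beyond correlations of 0.028, 0.021 and 0.029, so the numbers were not taken as pairs, although each library correlated best with its own number. With the replicate number as a block, the differences stayed at 11.0 points (exact sign-flip p = 0.25), 81 bp (p = 0.25) and 1.45 percentile points (p = 1), where 0.25 is the smallest p that 3 pairs can give.

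The peak lists carry no read counts, so a missing peak cannot be told from a weak one.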
